A study of Homo sapiens with 4 samples.

Results

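The clustered protocadherin genes of human chromosome band 5q31 were examined in a map of cohesin contacts of Kelly cells. Members were all pairs of anchors, the DNA stretches joined by the assay, with at least 1 anchor midpoint in chr5:140100000-141050000 of hg19. This 950 kb region holds the PCDHA, PCDHB and PCDHG clusters and the sequence on either side of them. It took 948 of the 720049 pairs in the data and 27 of the 39507 anchors. Of these 948 pairs, 60 had both ends in the region, 79 joined it to the rest of chromosome 5 and 809 joined it to other chromosomes.

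Kelly is an established neuroblastoma line, and the cells were a derivative resistant to TAE684, an inhibitor of the receptor tyrosine kinase ALK, kept in 1 µM of the drug. All groups shared this resistance and this drug. The shBORIS group carried a virus with a hairpin against BORIS, and the shLUC group carried a virus with the control hairpin. Both were infected for 24 h in the presence of polybrene and selected in puromycin for 48 h. Each group had 2 libraries but 1 table stands for each group, read here as the pool of both. No value below therefore has a replicate error, and every test compares 2 pools of libraries rather than the conditions. The labels number the libraries of a group 1 and 2 without saying whether the number marks a culture or a hairpin. All cells descend from 1 resistant line, and the level of BORIS was not analysed here. The assay, ChIA-PET against the cohesin subunit SMC1, ligates DNA fragments held together by the protein and reads both ends as a paired-end tag, or PET.

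Protocadherins are cell-surface adhesion proteins, and the clustered ones give individual neurons distinct surface identities that let a cell tell its own branches from those of its neighbours. In the alpha and gamma clusters each variable exon has its own promoter and is spliced to constant exons that the cluster shares, whereas each beta gene is a complete gene of 1 exon. Most of these promoters carry a conserved sequence element that is bound by CTCF, and cohesin and CTCF loop the active promoters to distant enhancers. Enhancers of the alpha cluster are known near its constant exons, and those of the beta and gamma clusters beyond the last gamma exon. BORIS, also named CTCFL, is a paralog of CTCF with a similar zinc-finger domain and is normally a germ-line protein.

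The promoters are shown first, since most of them are known to carry the conserved element that CTCF binds. Binding of CTCF or BORIS was not measured here. Of 53 protein-coding genes of the 3 families, 47 matched a RefSeq promoter entry of GRCh38.p14, namely 13 of 15 PCDHA, 14 of 16 PCDHB and 20 of 22 PCDHG genes, with 52 promoter entries in all. The 100 bases before the annotated start are printed 5′ to 3′ on the plus strand, with capitals for CGCT, the core of the conserved element, or in PCDHB7 and PCDHB9 for the longer joint form, in which that core is fused to the right end of the usual CTCF core motif.
PCDHA1: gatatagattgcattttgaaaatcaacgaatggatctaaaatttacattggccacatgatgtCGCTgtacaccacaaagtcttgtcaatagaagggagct
PCDHA2: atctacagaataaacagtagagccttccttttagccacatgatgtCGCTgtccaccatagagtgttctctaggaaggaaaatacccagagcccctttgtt
PCDHA4: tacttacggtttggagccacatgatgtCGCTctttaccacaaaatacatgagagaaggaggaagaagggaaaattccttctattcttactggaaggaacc
PCDHB7: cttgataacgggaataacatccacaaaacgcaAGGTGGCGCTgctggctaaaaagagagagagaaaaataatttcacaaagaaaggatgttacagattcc
PCDHB9: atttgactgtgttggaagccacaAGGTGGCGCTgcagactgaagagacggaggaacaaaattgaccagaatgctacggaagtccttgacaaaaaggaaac
PCDHGA1: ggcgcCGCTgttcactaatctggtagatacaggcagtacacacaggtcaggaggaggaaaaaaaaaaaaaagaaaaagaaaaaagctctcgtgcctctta
PCDHGA2: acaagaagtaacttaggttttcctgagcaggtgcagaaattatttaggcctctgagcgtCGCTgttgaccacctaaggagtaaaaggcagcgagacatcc
PCDHGA3: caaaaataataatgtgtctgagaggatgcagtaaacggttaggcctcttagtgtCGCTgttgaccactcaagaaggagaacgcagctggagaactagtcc

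These stretches lie on GRCh38.p14 at chr5:140786040-140786139, chr5:140794752-140794851 and chr5:140806968-140807067 for PCDHA1, PCDHA2 and PCDHA4. PCDHB7 and PCDHB9 are at chr5:141172544-141172643 and chr5:141187061-141187160. PCDHGA1, PCDHGA2 and PCDHGA3 are at chr5:141330414-141330513, chr5:141338660-141338759 and chr5:141343729-141343828. The build differs from that of the contact data, so no promoter was placed on an anchor and no single gene is named for one. On either strand of the 250 bases before the start, CGCT was found in 50 of the 52 protocadherin promoters (96.2%), the exceptions being PCDHA9 and PCDHB8, and in 64.8% of all 35116 promoters of the table. A CGCT on the sense strand whose first base lay 30 to 90 bases before the start, a window chosen after the positions had been seen, was present in 42 of 52 (80.8%), against 19.1% of all promoters. By family this was 12 of 13 PCDHA, 12 of 14 PCDHB and 18 of 25 PCDHG entries. The genes without it in any of their entries were PCDHA9, PCDHB5, PCDHB8, PCDHGA1, in which the core lies 95 bases before the start, and PCDHGB2. The other entries without it, of PCDHGB1, PCDHGB4, PCDHGB5, PCDHGB6 and PCDHGC4, belong to genes with a second entry that has it. The usual CTCF core motif was found in 1 of the 52 (1.92%) and in 8.9% of all promoters, and the joint form in 2 (3.85%) and 1.92%. These are matches of letters on both strands, the joint form overlaps the other motifs, and where none was found it shows only that the letters are not in this window.

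**Figure D1:**
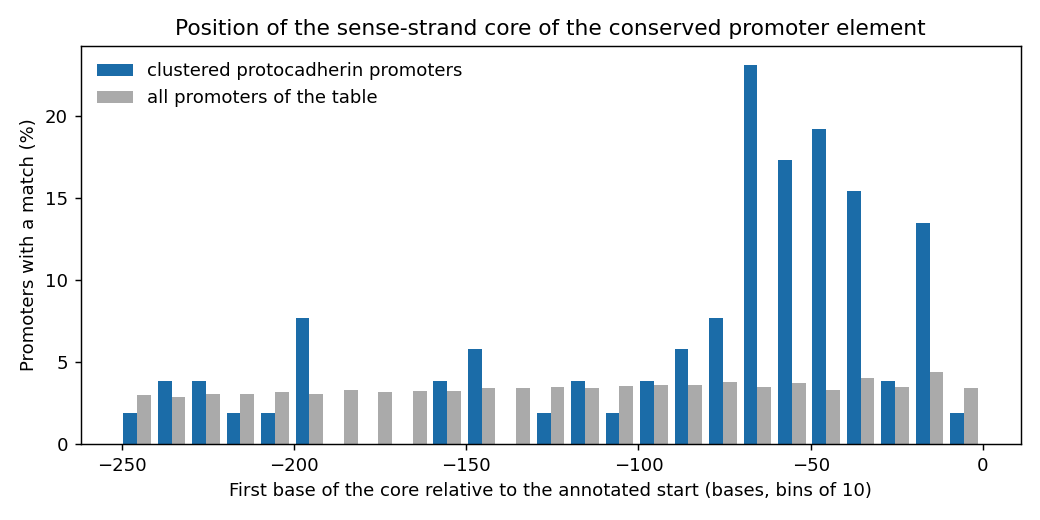
Position of CGCT on the sense strand in the 250 bases before the annotated start (x axis, bases, bins of 10) for the 52 clustered protocadherin promoters and for all 35116 promoters of the table (y axis, percent of promoters with a match in the bin). The protocadherin bars are highest 61 to 70 bases before the start, at 23.1% against 3.47% of all promoters.

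The region was divided by position into 5 parts, with limits set in steps of 10 kb or taken from the known ends of the clusters. The stretch before the clusters held 1 anchor, the alpha part 6, the beta part 5, the gamma part 4 and the stretch downstream of the clusters 11. In the gene order of RefSeq, HARS1, HARS2 and ZMAT2 precede PCDHA1, and DIAPH1, HDAC3, RELL2 and FCHSD1 follow the last gamma gene. SLC25A2 and TAF7 lie between the last beta gene and PCDHGA1. Anchors are numbered below within their part from low to high position. They were denser than elsewhere, at 2.84 per 100 kb against 1.30 in the whole genome, and narrower, with a median width of 922 bp against 1172 bp. Density was highest downstream of the clusters, at 7.01 per 100 kb, and was 2.27 in alpha, 1.85 in beta and 2.07 in gamma. Downstream 1, at chr5:140891390-140894718, lies across the end of the gamma cluster and was counted by its midpoint, and gamma 1, at chr5:140699448-140700878, likewise lies across the limit between beta and gamma. That limit was set by position without gene positions of hg19, so gamma 1 may lie before the first gamma gene.

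The tables held 434975 PETs for shLUC and 449979 for shBORIS, of which 33.6% and 36.2% joined anchors of the same chromosome. In the order shLUC and shBORIS, which holds throughout, the member pairs had 532 and 518 PETs. Of these, 66 and 76 lay within the region, 38 and 50 joined it to the rest of chromosome 5, and 428 and 392 went to other chromosomes. The contacts within the region were thinly covered. Of 351 possible pairs, 35 had a PET in shLUC and 42 in shBORIS, 17 of them in both tables, and 22 and 24 had 1 PET only. The region had 142 PETs over both tables, against a median of 193.5 in the 622 windows of the same length that held at least 100 PETs, and windows with fewer are not in that median. Given its anchors and their spacing, its total was near the average. Observed over expected, where the expected number is the mean per possible anchor pair of the whole genome in the same of 16 bins of span, was 0.961 in shLUC (exact 95% Poisson interval 0.743 to 1.22) and 0.971 in shBORIS (0.765 to 1.22). These intervals treat the expected number as fixed and, like all others here, cover counting error only.

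**Figure D2:**
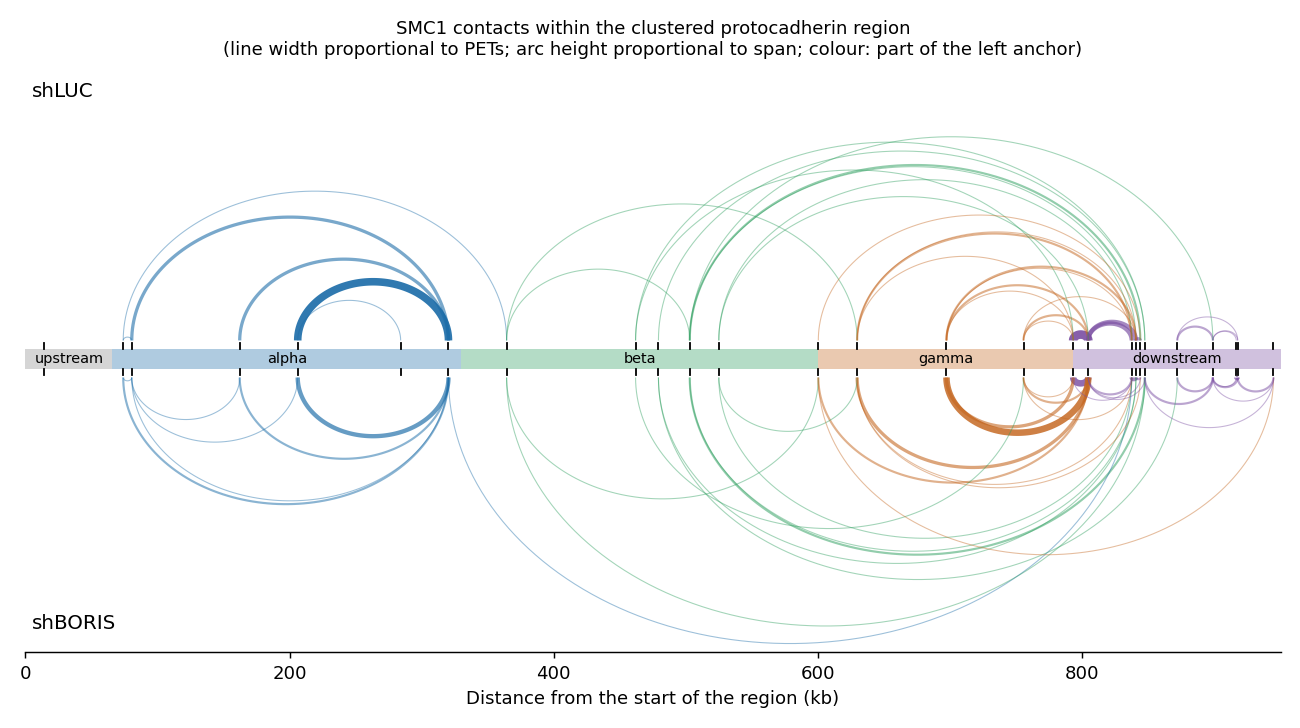
Contacts with both ends in the region, shLUC above and shBORIS below the bar, by distance from the start of the region (x axis, kb). Ticks are the 27 anchors, arc width is proportional to PETs and arc height to span. The widest alpha arcs end on the last alpha anchor, most beta and gamma arcs end downstream of the clusters, and 1 PET in each table leaves alpha for another part.

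In the alpha part the contacts converged on its last anchor, alpha 6 at chr5:140418975-140421536, a position singled out after its values were seen. The other alpha anchors had 16 PETs within the region in shLUC, and 13 of these went to alpha 6, or 81.2% (exact Clopper-Pearson 95% interval 54.3 to 96.0). In shBORIS 9 of 12 did, or 75.0% (42.8 to 94.5). The strongest was the contact of alpha 4, at chr5:140305496-140306999, across 114 kb, with 7 PETs in shLUC and 4 in shBORIS. It was called in both tables, a call being at least 3 PETs and a Bayes probability, the authors' score of each pair, of at least 0.9. Of 53037 possible anchor pairs of the genome 100 to 150 kb apart, 0.743% had as many PETs over both tables. Alpha 3, at chr5:140261930-140262726, reached alpha 6 across 157.9 kb with 3 and 2 PETs. Alpha 2, at chr5:140180176-140181015, did so across 239.7 kb with 3 and 1 PETs. Alpha 1, at chr5:140173805-140174462, did so across 246.1 kb with 0 and 2 PETs. The series of contacts thus spanned the alpha part from its first anchor to its last, with 4 of the 5 possible partners seen. The partner without such a contact was alpha 5, at chr5:140383713-140384390, the nearest to alpha 6, which had 1 PET within the region, to alpha 4 in shLUC. Among themselves the other alpha anchors had 2 and 3 PETs.

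The contacts of the other alpha anchors with alpha 6 are set beside the average of the genome at like span as a description, since alpha 6 was chosen for these counts and the intervals do not allow for that choice. In shLUC 13 PETs stood against 1.31 expected, a ratio of 9.96 (5.31 to 17.0), and in shBORIS 9 stood against 1.46, a ratio of 6.15 (2.81 to 11.7). Alpha 6 also had the most PETs to other chromosomes of the 27 anchors, 62 and 58, and was 2562 bp wide against a median of 818.5 bp in its part. With the expected number weighted by the PETs of both anchors to other chromosomes, the ratios were 7.32 (3.90 to 12.5) and 4.62 (2.11 to 8.77). Over all alpha pairs, 15 and 12 PETs gave ratios of 3.06 (1.71 to 5.05) and 2.14 (1.11 to 3.74).

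The beta and gamma anchors made their contacts downstream of the clusters instead. Of their PETs within the region, 24 of 27 in shLUC (88.9%, 70.8 to 97.7) and 28 of 31 in shBORIS (90.3%, 74.2 to 98.0) ended on downstream anchors. Over both tables gamma contacts ended most often on downstream 2, at chr5:140903521-140905498, with 4 and 13 PETs. In shLUC alone downstream 4 received as many, with 4 and 0 PETs, and downstream 1 and downstream 3 received 3 each, with 4 and 2 in shBORIS. The strongest came from gamma 3, at chr5:140796819-140797626, across 107.3 kb, with 2 PETs in shLUC and 6 in shBORIS, and it was called in shBORIS only. Of all possible pairs 100 to 150 kb apart, 1.29% had as many PETs over both tables. Gamma 2, at chr5:140729140-140730051, reached downstream 2 across 174.9 kb with 0 and 3 PETs. Gamma 4, at chr5:140855013-140855982, did so across 49.0 kb with 2 and 2 PETs. Gamma 1 did so across 204.3 kb with 0 and 2 PETs. All 4 anchors counted as gamma therefore contacted downstream 2, and in shLUC only gamma 3 and gamma 4 did so. With the inner limits 10 kb higher, gamma 1 falls in beta. Gamma to downstream PETs then number 14 and 18, and beta to downstream PETs 10 and 10. Gamma 3 also met downstream 1 across 95.8 kb, with 1 and 3 PETs.

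Beta contacts downstream were fewer than those of gamma, and most ended farther along than downstream 2. The beta part had 9 and 7 PETs to downstream anchors, with a median span of 391.6 kb over the 55 possible pairs. Downstream 2, the partner with most gamma PETs in shBORIS, received 1 and 0 of these. Beta 4, at chr5:140602467-140603317, had the most within the region, 5 and 3 PETs. It met downstream 4 (chr5:140939772-140941391) with 1 and 1 PETs, downstream 5 (chr5:140943302-140944550) with 2 and 0, and downstream 6 (chr5:140946805-140947776) with 0 and 2. These 3 anchors are neighbours, 337.7, 341 and 344.4 kb from beta 4. Beta 5, at chr5:140624472-140625393, met downstream 3 (chr5:140936617-140938266) across 312.5 kb with 1 and 1 PETs. No beta pair reached 3 PETs in a table, so none was called.

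At like span, gamma to downstream contacts stood at 1.62 times the average in shLUC (0.906 to 2.67) and 2.05 times in shBORIS (1.27 to 3.13), from 15 and 21 PETs. Beta to downstream contacts stood at 2.75 times (1.26 to 5.22) and 1.91 times (0.766 to 3.93). Taken as 1 class, the ratios were 1.91 (1.23 to 2.85) and 2.01 (1.34 to 2.91), and weighted by PETs to other chromosomes 2.90 (1.86 to 4.32) and 3.07 (2.04 to 4.43). With the expected number taken from chromosome 5 alone, the beta ratio in shLUC was 1.90 with an interval that includes 1 (0.867 to 3.60). Within and between these clusters few PETs were seen, below the expected number in each class. Expected were 4.3 and 5.1 PETs for beta, 2.3 and 2.6 for gamma and 3.9 and 4.3 between beta and gamma. Beta anchors had 1 and 0 PETs among themselves, ratios of 0.230 (0.00583 to 1.28) and 0 (0 to 0.728). Gamma anchors had 0 and 0, with upper limits of 1.62 and 1.43, and beta and gamma met with 1 and 3 PETs, 0.255 (0.00647 to 1.42) and 0.700 (0.144 to 2.04). Apart from beta in shBORIS, these intervals include 1, and these classes were not pooled into 1 ratio. Their expected numbers do not allow for the coverage of the anchors, and no weighted ratio was computed for them. The 5 beta anchors had 34 and 26 PETs to other chromosomes and the 4 gamma anchors 43 and 32. For the other alpha anchors with beta and gamma, weighting lowered the expected number in shLUC from 3.55 to 0.601.

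Few alpha contacts with the beta, gamma and downstream parts were seen, and beyond beta few were expected. Alpha anchors had 1 PET to the beta, gamma and downstream anchors in each table, against 6.51 and 7.19 expected over 120 possible pairs. The ratios were 0.154 (0.00389 to 0.855) and 0.139 (0.00352 to 0.775). Weighted by PETs to other chromosomes, they were 0.184 (0.00467 to 1.03) and 0.166 (0.00420 to 0.923), so that the interval in shLUC then includes 1. Most of the unweighted expected number, 4.15 and 4.59, was for alpha with beta. Alpha with gamma had 1.055 and 1.181 expected, and alpha with downstream anchors 1.31 and 1.42. Taken apart, only alpha with beta in shBORIS, with 0 PETs, had an interval below 1 (0 to 0.804). Weighted, the other alpha anchors had 1 and 0 PETs to beta and gamma against 0.601 and 0.665 expected. The PET in shLUC joined alpha 1 to beta 1 (chr5:140463900-140464670), the first beta anchor, and the PET in shBORIS joined alpha 6 to downstream 3 across 517.2 kb. Over both tables, 0 of the 28 PETs of the other alpha anchors ended downstream of the clusters, which allows a share of up to 10.7% by a floor of 3 counts (12.3% by the exact Clopper-Pearson limit). Of the 58 of the beta and gamma anchors 0 ended on alpha 6, which allows up to 5.17% by that floor (6.16% by the exact limit). At like span the first class had 0.964 and 1.03 PETs expected, so its 0 does not show fewer contacts than average. Alpha 6 had 0 and 1 PETs to all beta, gamma and downstream anchors, against 2.0 and 2.2 expected, or 4.23 and 4.73 weighted. Unweighted, both intervals of the ratio include 1. Weighted, the ratios were 0 (0 to 0.872) and 0.211 (0.00535 to 1.18). This class covers more pairs than the second 0, so no ratio is given for that 0. The anchor upstream of the clusters, at chr5:140113890-140114516, had 0 PETs to the other 26 anchors.

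**Figure D3:**
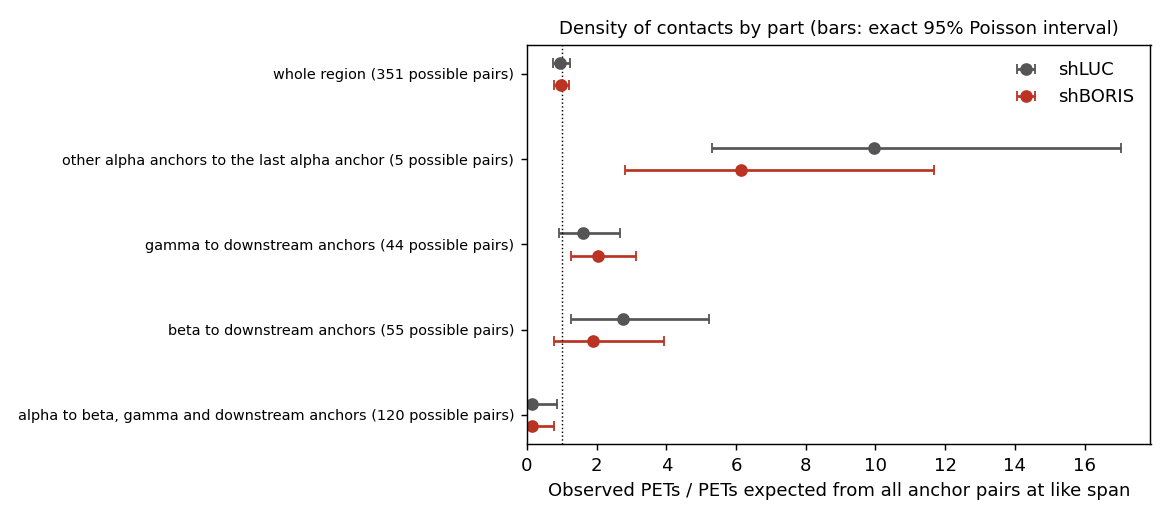
Observed PETs divided by those expected from all anchor pairs of the genome at like span (x axis) for classes of contacts in the region, with shLUC in grey and shBORIS in red. Bars are exact 95% Poisson intervals and the dotted line marks the average of 1. Contacts of the other alpha anchors with the last one stand at 9.96 and 6.15, and contacts from alpha to the remaining parts at 0.154 and 0.139.

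Downstream of the clusters the 11 anchors had 24 and 32 PETs among themselves, which was 0.744 (0.476 to 1.11) and 0.853 (0.584 to 1.20) of the number expected at these mostly short spans. Since DIAPH1, HDAC3, RELL2 and FCHSD1 follow the last gamma gene, these contacts may concern other genes than the protocadherins, which was not tested. Weighted by PETs to other chromosomes, the ratios were 0.480 (0.308 to 0.714) and 0.544 (0.372 to 0.768), with intervals below 1. With the gamma end 10 kb up, a limit chosen after seeing the data that moves downstream 1 into gamma, they were 0.565 (0.323 to 0.918) and 0.760 (0.492 to 1.12). The contact with the most PETs of the region lay here. It joined downstream 1 and downstream 2 across 11.5 kb with 8 PETs in shLUC and 6 in shBORIS, and was called in both. Of the 12569 possible pairs 10 to 20 kb apart, 0.851% had as many PETs over both tables. Downstream 2 also met downstream 3 with 4 and 2 PETs, and downstream 4 with 4 and 0. Short contacts called in shBORIS only were downstream 3 to downstream 4, across 3.14 kb, and downstream 9 to downstream 10 (chr5:141016162-141016863 and chr5:141016972-141018225), across 1.09 kb. Each had 0 PETs in shLUC and 4 in shBORIS. Over both tables summed, 35.5% of possible pairs 2 to 5 kb apart and 78.8% of those under 2 kb had as many. Downstream 4 to downstream 5 had 3 and 2 PETs, and downstream 7 (chr5:140971411-140972327) to downstream 8 (chr5:140998078-140999446) 2 and 2.

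Summed over partners, downstream 2 had the most PETs within the region, 21 and 23, ahead of alpha 6 with 13 and 10 and downstream 1 with 12 and 11. Then came downstream 4 with 12 and 8, downstream 3 with 8 and 11, gamma 3 with 6 and 9, alpha 4 with 8 and 5, downstream 8 with 5 and 8, and gamma 2 with 5 and 6. Downstream 5 and downstream 10 followed with 10 each over both tables. The anchors with most contacts in the region also tended to have most PETs to other chromosomes, 57 and 46 at downstream 2 and 40 and 40 at downstream 4. These go to scattered partners, since only 10 of the 809 pairs with other chromosomes had more than 1 PET.

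**Figure D4:**
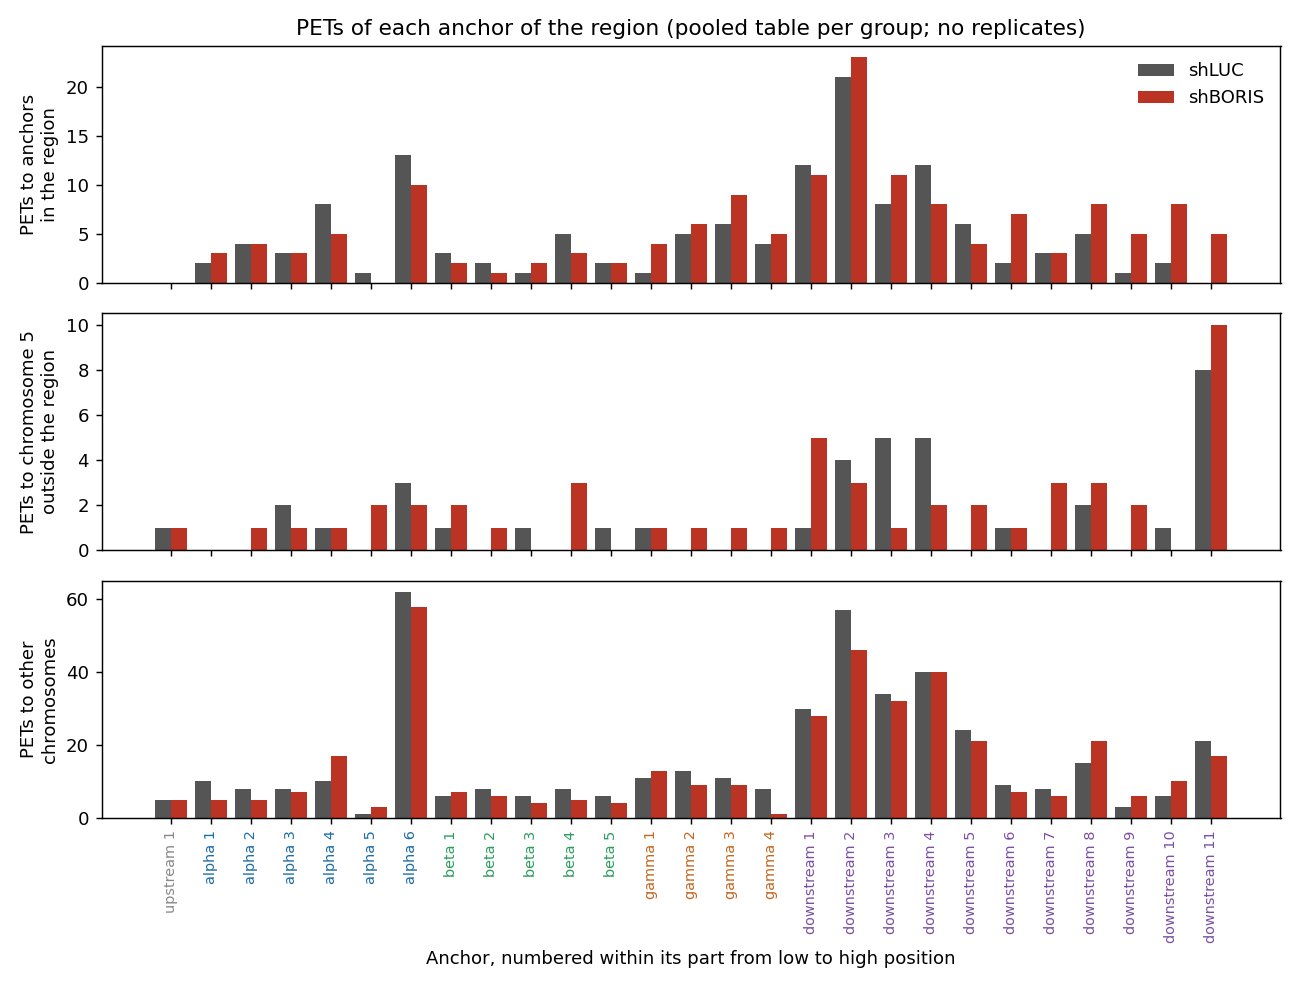
PETs of each of the 27 anchors (x axis, in order of position) to anchors in the region, to chromosome 5 outside it and to other chromosomes (y axes, PETs), with shLUC in grey and shBORIS in red. Downstream 2 is the highest in the upper panel, where alpha 6 is next in shLUC only. Alpha 6 is the highest in the lower panel, followed by downstream 2. Downstream 11 is the highest in the middle panel, with 8 and 10 PETs.

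Whether the hairpin against BORIS goes with another number of contacts in the region was tested on the summed PETs. The 66 PETs of shLUC and 76 of shBORIS gave a scaled ratio, shBORIS over shLUC after division by the intrachromosomal PETs of each table, of 1.03 (0.732 to 1.46). No difference was detected at this depth (two-sided Fisher's exact test, p = 0.867, adjusted p = 0.989 by Benjamini-Hochberg over 622 windows). Of these windows 3.7% passed the threshold of 0.05, and the middle 95% of their ratios ran from 0.672 to 1.45. In such a population measurement, fewer cells with a contact and fewer contacts per cell cannot be told apart.

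No single contact or anchor of the region passed its test either. Of 3951 pairs of the genome with at least 10 PETs, 0.0506% passed, and of the 2 in the region 0 did by Fisher's exact test, with 0 at an unadjusted p under 0.05. After adjustment the 11 PETs of alpha 4 to alpha 6 could not have passed in any split between the tables. The 14 of downstream 1 to downstream 2 could have passed at most with all in 1 table. For these 2 pairs the adjusted test therefore says little. For alpha 4 to alpha 6, with 7 and 4 PETs, shBORIS stood at 0.512 of shLUC with limits of 0.110 and 2.02 (adjusted p = 0.986 by Fisher's exact test). For downstream 1 to downstream 2, with 8 and 6 PETs, it stood at 0.672 with limits of 0.192 and 2.21 (adjusted p = 1 by Fisher's exact test). Of 19623 anchors with at least 10 intrachromosomal PETs 0.0204% passed, and of the 15 in the region 0 did by Fisher's exact test, with 0 at an unadjusted p under 0.05. The smallest adjusted p was that of downstream 4, with 17 and 10 PETs and 0.527 with limits of 0.216 and 1.22 (adjusted p = 0.876 by Fisher's exact test). Both of the main convergence points had ratios with intervals that include 1, 0.672 (0.290 to 1.51) at alpha 6 with 16 and 12 PETs and 0.932 (0.517 to 1.68) at downstream 2 with 25 and 26.

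By class the ratios lay on both sides of 1, and every interval included 1. Alpha contacts among themselves gave 0.717 (0.307 to 1.64), and beta to downstream contacts gave 0.697 (0.221 to 2.10). Gamma to downstream contacts gave 1.25 (0.617 to 2.62), and contacts among downstream anchors 1.20 (0.682 to 2.12). The difference between alpha and gamma in this ratio was not tested. By span, contacts under 20 kb had 14 and 20 PETs and a ratio of 1.28 (0.615 to 2.74). Those of 20 to 100 kb had 17 and 21, giving 1.11 (0.556 to 2.24). Contacts of 100 to 500 kb had 35 and 34, giving 0.871 (0.527 to 1.44). Median spans of the PETs were 110.6 and 95.8 kb, against 83.2 kb and 77.9 kb for all anchor pairs shorter than the region.

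**Figure D5:**
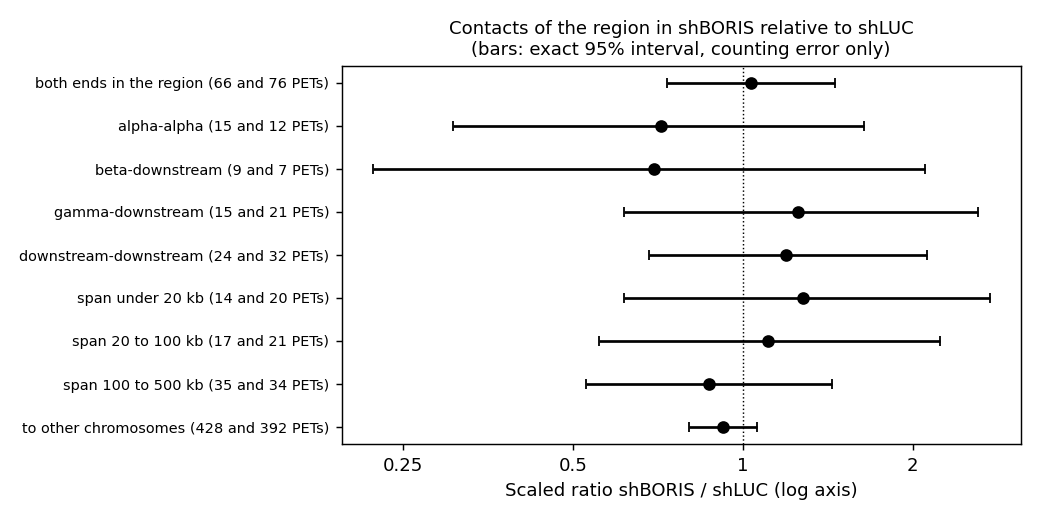
Scaled ratio of PETs in shBORIS over shLUC (x axis, log scale) for the region, its classes of contacts and its spans, each scaled to the intrachromosomal PETs of the tables, and for PETs to other chromosomes, scaled to the interchromosomal ones. Points are ratios, bars are exact 95% intervals for counting error, and each bar crosses the dotted line at 1.

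Calls depended on small numbers. In shLUC 7 of the 35 pairs seen were called (20.0%, 8.44 to 36.9), against 17% of all such pairs of the genome shorter than the region. In shBORIS 7 of 42 were (16.7%, 6.97 to 31.4), against 18.1%. Of the 12 pairs called in either table, 2 were called in both (16.7%, 2.09 to 48.4), against 35% genome-wide, which lies inside the interval. The 5 called in shLUC alone were alpha 2 to alpha 6, alpha 3 to alpha 6, downstream 2 to downstream 3, downstream 2 to downstream 4 and downstream 4 to downstream 5, and 4 of them had a PET in shBORIS. The 5 called in shBORIS alone were gamma 3 to downstream 1, gamma 3 to downstream 2, gamma 2 to downstream 2, downstream 3 to downstream 4 and downstream 9 to downstream 10, and 2 of them had a PET in shLUC. Thus the alpha calls of 1 table alone were those of shLUC and the gamma calls those of shBORIS, a pattern seen after the fact on pairs with 3 to 6 PETs in the table that called them. Restricted to called pairs, gamma to downstream contacts had 3 and 12 PETs (3.47, 0.937 to 19.2) and alpha contacts 13 and 7 (0.467, 0.158 to 1.26). Both directions follow from the choice of pairs, since the 3 called gamma pairs were called in shBORIS alone and 2 of the 3 called alpha pairs in shLUC alone, and nothing is read from these ratios.

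Contacts under 2 Mb that left the region for the rest of chromosome 5 mostly ran downstream. Of PETs under 2 Mb in span, 10 in shLUC and 21 in shBORIS left it, and 9 and 17 of these ran downstream. Anchors of the alpha, beta and gamma parts had 2 and 3 of them. Downstream 11, the last anchor, at chr5:141044082-141045395, had 7 and 7. It lies 944.7 kb into the 950 kb region, so every partner on its far side counts as outside by the choice of limit. Its strongest partner lay at chr5:141070933-141072673, 27.1 kb away, with 2 and 3 PETs, and a second lay at chr5:141339460-141341161, with 0 and 3. Both were called in shBORIS. Within the region this anchor had 0 PETs in shLUC and 5 in shBORIS.

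PETs to other chromosomes, which measure the coverage of an anchor apart from its contacts in the region, numbered 428 and 392, a ratio of 0.922 (0.802 to 1.06) after division by all interchromosomal PETs. They numbered 99 and 95 in alpha, 34 and 26 in beta, 43 and 32 in gamma, 247 and 234 downstream and 5 and 5 upstream, and the interval of the ratio included 1 in each. For gamma 4 alone of the 27 anchors it did not, with 8 and 1 PETs and a ratio of 0.126 (0.00284 to 0.939). That value was picked from 27 and was not tested. The pair with the most such PETs joined downstream 2 to chr9:136397398-136401503, with 3 in shLUC and 0 in shBORIS and a Bayes probability of 0.614.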

How the data were processed

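SMC1 ChIA-PET of Kelly cells was analysed from 1 deposited table per group, which both libraries of the group name. The submitters' processing notes name cutadapt 1.8, Bowtie and hg19, and the program that defined anchors is not given in the sources used here. PET counts are whole and unnormalized, the hypergeometric p-value was not used, and the Bayes probability is a fraction from 0 to 1, all the authors' own per the file headers. The shBORIS table lacks a header, so its columns were taken to follow those of shLUC. Positions are printed 1-based. Region, limits, lists and named anchors (the pairs and anchors with most PETs, overall and per class) were chosen with earlier results of these data known. Pairs and anchors needed 10 PETs and windows 100 over both tables for Fisher's exact test, with Benjamini-Hochberg adjustment over the genome. PETs carry no molecular identifiers. Scripts were tested on simulated counts. Python 3.11.15, SciPy 1.17.1 and pandas 2.3.3 were used.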

Additional observations from a re-analysis of the deposited data

How the results depend on the processing

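Over 26 results and 99 alternatives, 17 values moved past their counting interval or, for counts of calls, by over 1.5 times. Of the region 0 pairs and 0 anchors passed under any alternative run, an assumed negative binomial dispersion of 0.1 included. For pairs this says little, since their few PETs left almost no split that could have passed. Ratios whose intervals include 1 fell on its other side for the region with pairs of at least 20 kb (0.984), for called pairs among downstream anchors (0.822) and for alpha with the inner limits 10 kb lower (1.34, 0.154 to 16.1). With at least 5 PETs, 2 pairs were called in shLUC and 2 in shBORIS, 1 in both and 1 and 1 alone. With a probability of at least 0.99, 4 and 4 were called, 2 and 2 alone. When 1 PET in the second table was enough for sharing, 8 were shared, 1 was of shLUC alone and 3 of shBORIS alone. Called pairs only gave 3.47 for gamma to downstream, where all 3 pairs were called in shBORIS alone, so that this choice of pairs fixes the direction. Weighting the expected number by interchromosomal PETs gave 6.06 and 4.36 for alpha, 5.40 for beta to downstream in shLUC and 0.544 among downstream anchors in shBORIS. With the lower inner limits the last alpha anchor falls in beta, leaving 2 and 3 alpha PETs. Limits moved at the gamma end, the chromosome 10 anchor without a shLUC PET left out and, for contacts between parts, those under 20 kb left out were chosen after seeing the data. A filter of 20 PETs left 0 pairs of the region, so it was not run. No paired analysis was possible because PETs are given only once per group, read here as the sum over both libraries, and no replicate could be left out. At 66 and 76 PETs the depth limits the ratio of the region to 0.732 to 1.46.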
